A study of Mus musculus with 2 samples.

Results

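The endocardium and endothelium genes are 10 genes that mark the inner cell layer of the heart and the lining of blood vessels, namely Pecam1, Cdh5, Kdr, Flt1, Tek, Tie1, Emcn, Eng, Nfatc1 and Nrg1. They were found by gene symbol, and all 10 had 1 row each among the 21225 genes of the array table. The study compared right atria of Shox2-/- and wildtype mouse embryos of the CD-1 outbred line at E11.5, with 1 GeneChip Mouse Gene 1.0 ST array per genotype. Each array was hybridized with RNA pooled from 6 right atria of 2 pregnancies, dissected to include the sinus venosus myocardium and the venous valves. Shox2 is a homeodomain transcription factor of this myocardium, and the Shox2-/- embryos were homozygous for its knockout allele. Since each genotype was measured on a single array, there are no replicates, neither errors nor p-values could be given, and precision is limited by how few arrays there are. The pooled tissue holds many cell types, and fewer cells of a type and less RNA per cell cannot be told apart in it.

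The endocardium is a single layer of endothelial cells that faces the blood inside the heart and is continuous with the lining of the veins that enter the atrium. Endothelial cells are held together by junction proteins such as Cdh5 and Pecam1, and they read growth factors of the Vegf and angiopoietin families through receptor tyrosine kinases. In the heart the endocardium also signals to the muscle beside it, among others through neuregulin, and endocardial cells of the cushions give rise to valve tissue.

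Promoter windows from RefSeq (mouse build GRCm38.p6) were searched for 6 of the 10 genes, Emcn, Tek, Tie1, Kdr, Flt1 and Eng. Each ran from 250 bases before to 50 bases after the gene's start. The windows of Emcn, Tie1 and Tek are shown because the results below turn on these genes. Emcn had the lowest difference between the arrays of all 10 genes in the deposited values. Tie1 and Tek are a pair of related receptors. Capitals mark motifs on either strand. AGGAAG and CGGAAG (read CTTCCT and CTTCCG on the other strand) are forms of the binding sites of Ets factors, which are active in endothelial cells. Shorter or other forms of Ets sites were not searched for. AGATAA (or TTATCT) is a core of Gata factor sites. AATT is the palindrome that was mutated in the study's SHOX2 binding assays. None of these motifs overlapped another in the windows shown.
Emcn (chr3:137340828-137341127, plus strand): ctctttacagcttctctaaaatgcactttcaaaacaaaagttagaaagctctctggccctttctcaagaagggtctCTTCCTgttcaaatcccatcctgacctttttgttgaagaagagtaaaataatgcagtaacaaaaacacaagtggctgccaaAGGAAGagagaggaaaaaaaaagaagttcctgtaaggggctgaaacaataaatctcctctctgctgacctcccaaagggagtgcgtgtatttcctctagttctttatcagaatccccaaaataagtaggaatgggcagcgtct
Tie1 (chr4:118489800-118490099, minus strand): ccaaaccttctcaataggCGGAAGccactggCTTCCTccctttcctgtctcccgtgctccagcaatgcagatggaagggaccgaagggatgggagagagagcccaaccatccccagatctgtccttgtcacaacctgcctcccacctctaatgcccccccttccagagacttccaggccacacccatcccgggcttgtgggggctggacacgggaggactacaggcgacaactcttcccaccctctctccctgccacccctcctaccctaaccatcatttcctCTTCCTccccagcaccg
Tek (chr4:94739039-94739338, plus strand): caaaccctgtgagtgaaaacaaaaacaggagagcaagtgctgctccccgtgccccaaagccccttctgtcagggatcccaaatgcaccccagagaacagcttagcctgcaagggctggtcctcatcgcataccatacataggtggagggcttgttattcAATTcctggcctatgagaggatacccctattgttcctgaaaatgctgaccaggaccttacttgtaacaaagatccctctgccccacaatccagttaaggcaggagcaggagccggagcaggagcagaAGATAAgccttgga

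An Ets core was present in 4 of the 6 windows (Emcn, Tie1, Flt1 and Eng), against 46.5% of 32851 promoter windows of the same length. AATT was present in 1 of the 6, that of Tek, where it began 91 bases before the start, and in 50.4% of all windows. AGATAA was found in the Tek window alone among the 6, and in 11.2% of all windows. In the Kdr window none of the motifs was found. A match is a description of the letters and not a measured binding site.

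The targeted gene Shox2 had 7.48 on the Shox2-/- array and 8.43 on the wildtype array, a difference of −0.95. All values are log2 array values, and each difference is the value in Shox2-/- minus that in wildtype right atria for 1 gene. The medians of all genes were 7.50 and 7.49 on the Shox2-/- and wildtype arrays. Genes were counted at size thresholds of 0.35 and −0.4. These are the cutoffs the study used together with a limit on P, which was not applied here because 1 value per gene and array gives no P. Background signal was described by 1294 genes of olfactory and vomeronasal receptors, and their 95th percentile, called the receptor level, was 6.97 on the Shox2-/- array and 6.78 on the wildtype array. Xist, an RNA made from the inactive X chromosome in females and singled out after its value was seen, had 6.60 on the Shox2-/- array and 10.13 on the wildtype array. Its difference of −3.53 was the lowest of all genes, and its Shox2-/- value lay below the receptor level of that array. No source at hand gives the sex of the pooled embryos. A difference in sex between the pools cannot be told apart from genotype in any value given here.

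All 10 endocardium and endothelium genes lay above the receptor level on both arrays, so that endothelial marker transcripts were measured in both genotypes. None of the 10 was past a size threshold in either direction, where 1.13% of all genes were past the upper threshold, 1.78% past the lower and 2.91% past either. At these shares a list of 10 genes with none past a threshold is near the background, and nothing particular to the list follows from the count. The differences ran from −0.17 (Emcn) to 0.17 (Nfatc1), 6 of them above 0 and 4 below, and of all genes 54.9% lay above 0 and 45.1% below. Their median was 0.018, beside 0.021 over all genes. In the deposited values, none reached 0.2 in either direction, which 23.0% of all genes did. Summed on the linear scale, the signal of the 10 genes on the Shox2-/- array was 99.4% of that on the wildtype array.

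**Figure D1:**
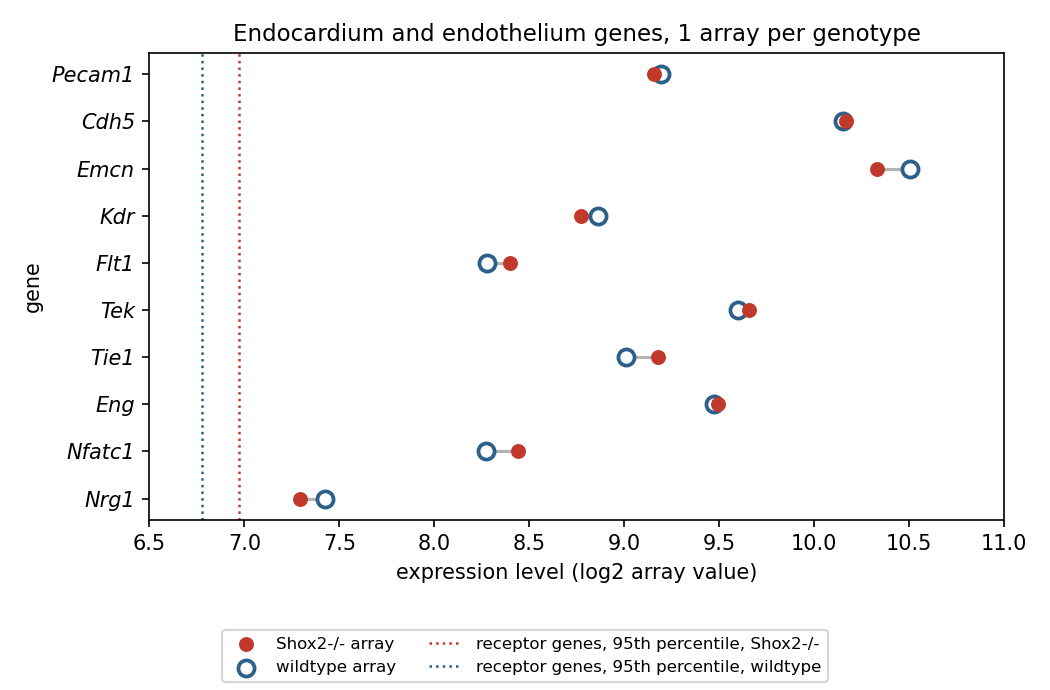
Expression level (log2 array value, x axis) of the 10 endocardium and endothelium genes on the Shox2-/- array (filled red) and the wildtype array (open blue), 1 array each, with dotted lines at the 95th percentile of receptor genes on each array (6.97 and 6.78). The 2 points of a gene lie at most 0.17 apart, and all points lie to the right of both dotted lines.

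Cdh5 (Entrez gene 12562), the VE-cadherin that joins endothelial cells at their adherens junctions, had 10.17 on the Shox2-/- array and 10.15 on the wildtype array. Its difference of 0.016 was the smallest of the 10 in size. Pecam1 (Entrez gene 18613), an adhesion molecule at the borders of endothelial cells that platelets and leukocytes also carry, had 9.16 on the Shox2-/- array and 9.19 on the wildtype array. The values of both junction genes were thus nearly the same in the 2 pools, with Pecam1 at 97.6% of its wildtype signal.
Emcn (Entrez gene 59308) encodes endomucin, a sialomucin of the endothelial surface that is found in veins, capillaries and endocardium. It had 10.33 on the Shox2-/- array and 10.50 on the wildtype array. Its difference of −0.17 left 88.7% of the wildtype signal, and 14.8% of all genes had a lower difference.

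Of the receptors for Vegf, Kdr (Entrez gene 16542), which carries most of the growth signal of Vegfa, had 8.77 on the Shox2-/- array and 8.86 on the wildtype array, a difference of −0.091. Flt1 (Entrez gene 14254), which binds Vegfa tightly and in its soluble form holds it away from Kdr, had 8.40 on the Shox2-/- array and 8.28 on the wildtype array, a difference of 0.12. The pair differed in sign, and the difference of Flt1 was 0.21 above that of Kdr. Both stayed between the 25th and 75th percentiles of all genes, which were −0.10 and 0.13. Among genes in the range of mean level spanned by the 10 genes, these percentiles were −0.17 and 0.047, and Flt1 lay above the upper one.
Among the other genes of the Vegf system, chosen as a list of 8, 6 had a difference above 0 and 2 below it, with a median of 0.066. Of all genes, 54.9% lay above 0, 45.1% below, and 2.91% were past either threshold. These shares are the background of each list that follows as well. The ligand gene Pgf, whose product binds Flt1 but not Kdr, was past the lower threshold, with 7.22 on the Shox2-/- array and 7.66 on the wildtype array and a difference of −0.44. These values stood only 0.25 and 0.89 above the receptor levels of the Shox2-/- and wildtype arrays, which limits what the difference can show. The ligand genes Vegfb, also read by Flt1, and Vegfa lay at the other end, with differences of 0.27 and 0.25. Vegfb had 10.03 on the Shox2-/- array and 9.76 on the wildtype array, and Vegfa had 8.96 on the Shox2-/- array and 8.71 on the wildtype array. Flt4, the receptor of Vegfc, and the co-receptor genes Nrp1 and Nrp2 had differences of 0.064, 0.068 and −0.036.

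Tek (Entrez gene 21687), also called Tie2, is the receptor of the angiopoietins, and Tie1 (Entrez gene 21846) is its relative that binds no angiopoietin with high affinity and modulates Tek. Tek had 9.66 on the Shox2-/- array and 9.60 on the wildtype array, a difference of 0.057. Tie1 had 9.18 on the Shox2-/- array and 9.01 on the wildtype array, a difference of 0.17, or 112% of the wildtype signal. Both receptor genes were higher on the Shox2-/- array, and 83.1% of all genes had a lower difference than Tie1.
Of 5 further genes of this system, 3 had a difference above 0 and none was past a threshold. Angpt1, the activating ligand that heart muscle makes, had a difference of 0.013. Angpt2, the ligand that can block Tek, had the lowest of the list, −0.23, with 6.98 on the Shox2-/- array, beside the receptor level of 6.97, and 7.21 on the wildtype array. Ptprb, the phosphatase that acts on Tek, had −0.042.

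Eng (Entrez gene 13805) encodes endoglin, a co-receptor for ligands of the Tgf-beta and Bmp families in endothelial cells. It had 9.49 on the Shox2-/- array and 9.47 on the wildtype array, a difference of 0.020. Its value was nearly the same in both pools, as was that of Cdh5.
In the list of 14 further genes of its receptor system, 9 had a difference above 0 and 5 below, none past a threshold, and the median was 0.026. Acvrl1, the type I receptor that works with endoglin, had a difference of 0.13, and Bmpr2, a type II receptor, had −0.069. The highest difference was that of Bmp10, an Acvrl1 ligand made by heart muscle, with 0.18, and the lowest that of Tgfb1, with −0.23. Gdf2, the other high-affinity ligand of Acvrl1, which is made by the liver, lay below the receptor level on both arrays, at 6.63 in Shox2-/- and 6.74 in wildtype right atria.

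Nfatc1 (Entrez gene 18018) is a transcription factor that calcineurin sends into the nucleus, and in the embryonic heart it is restricted to endocardium, where valve formation needs it. It had 8.44 on the Shox2-/- array and 8.27 on the wildtype array. Its difference of 0.17, or 112% of the wildtype signal, was the highest of the 10 genes, and 83.3% of all genes had a lower one. Nfatc1 and Emcn, which both mark endocardium, lay at opposite ends in the deposited values, 0.34 apart.
Of 11 further calcineurin and NFAT genes, 5 had a difference above 0 and 6 below, with a median of −0.030 and none past a threshold. With the trend on level removed, which is described below, 8 lay above 0 and 3 below, and the median was 0.038. Of all genes, 50.6% then lay above 0. The lowest was the calcineurin subunit gene Ppp3cc (−0.22). The highest was the Tnf family ligand gene Tnfsf11 (0.15), followed by Rcan1, an inhibitor of calcineurin that is also one of its targets, which rounds to the same value.

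Nrg1 (Entrez gene 211323) encodes neuregulin, the ligand by which endocardium reaches the Erbb4 and Erbb2 receptors of heart muscle. Its level was nearest to the receptor level among the 10 genes, with 7.29 on the Shox2-/- array and 7.42 on the wildtype array. The difference of −0.13 left 91.4% of the wildtype signal, and the values stood 0.32 and 0.65 above the receptor levels of the Shox2-/- and wildtype arrays.
The receptor genes of the muscle had differences of 0.20 (Erbb4, the highest of the list) and 0.059 (Erbb2). Erbb4 had 9.50 on the Shox2-/- array and 9.30 on the wildtype array. In the list of 11 further neuregulin and Erbb genes, 10 were in the table, 7 with a difference above 0 and 3 below, and none was past a threshold. Of the 10, 6 lay above the receptor level on the Shox2-/- array and 6 on the wildtype array, and the lowest difference was that of Egfr (−0.10). Nrg3, Nrg4, Btc and Ereg lay below the receptor level on both arrays, and all of them had differences above 0. The median was 0.12 over the 10 genes and 0.016 over the 6 above the receptor level. With the trend on level removed, 6 of the 10 lay above 0 and 4 below, and their median was 0.045.

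**Figure D2:**
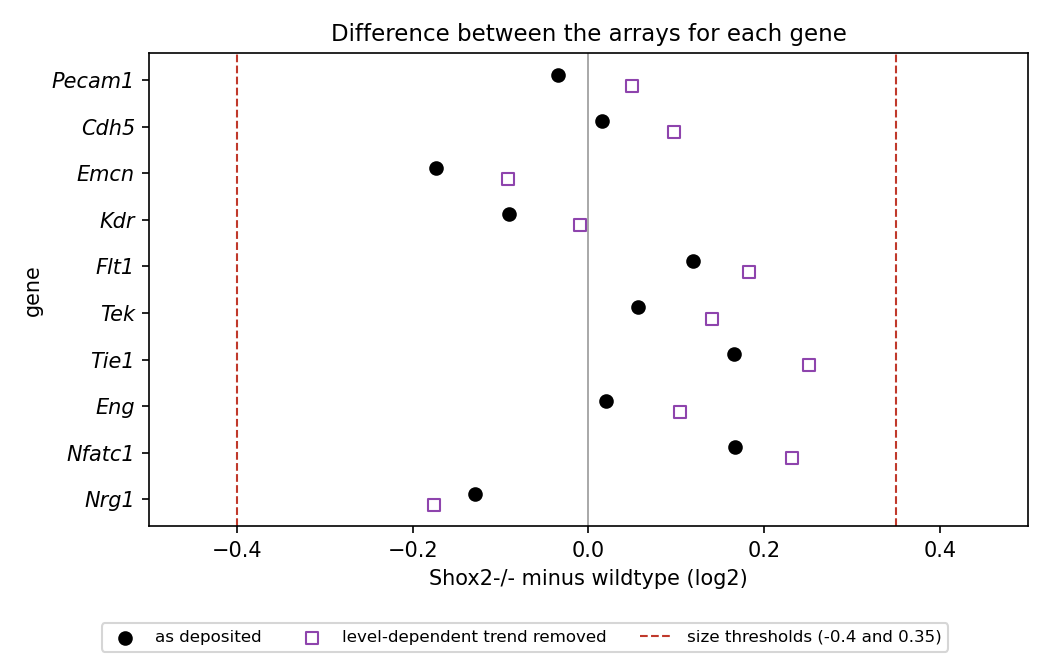
Shox2-/- minus wildtype difference (log2, x axis) of each of the 10 genes as deposited (black circles) and after the lowess trend on level was taken off (open squares), with dashed lines at the size thresholds of −0.4 and 0.35. All symbols lie between the dashed lines, and Pecam1 is the gene whose symbols lie on different sides of 0.

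The difference between the arrays depended on level over all genes, and this touches the sign of small differences. Genes inside the range of mean level spanned by the 10 genes, 10694 in number, had a median difference of −0.060, with 25th and 75th percentiles of −0.17 and 0.047. At the levels of the 10 genes, a lowess trend of the difference on the mean level ran from −0.085 to 0.046. With this trend removed, the median of the 10 genes was 0.10, beside 0.0019 over all genes, and 7 of the 10 lay above 0, as did 50.6% of all genes. Pecam1 changed sign, with −0.035 as deposited and 0.050 without the trend. Kdr came to −0.0092, Emcn to −0.092 and Nrg1 to −0.18, while Tie1 came to 0.25 and Nfatc1 to 0.23. Nrg1 was then the lowest of the 10 genes and Tie1 the highest, in place of Emcn and Nfatc1. None of the 10 was past a threshold without the trend either, where 2.45% of all genes were.

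**Figure D3:**
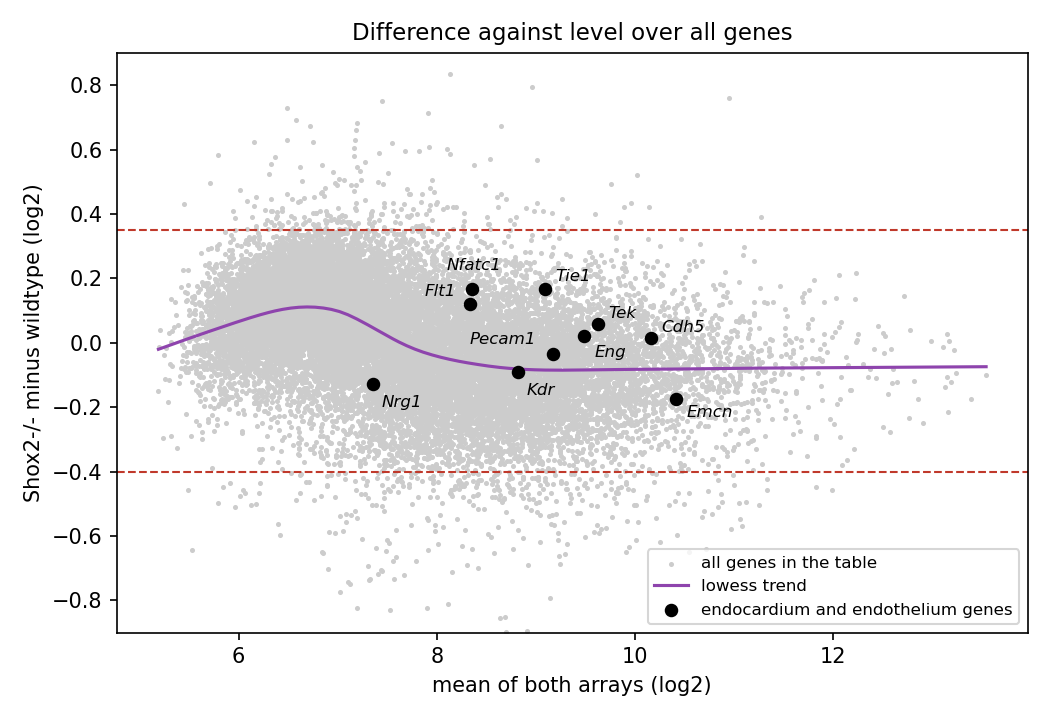
Shox2-/- minus wildtype difference (log2, y axis) against the mean of both arrays (log2, x axis) for all genes (grey) and the 10 endocardium and endothelium genes (black, named), with the lowess trend (purple) and the size thresholds (dashed, −0.4 and 0.35); 24 genes lie outside the plotted range of −0.9 to 0.9. Of the 10 genes, 9 lie where the trend is below 0, and Nrg1 lies where it is above 0.

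A wider list of general endothelial genes was set beside the 10 genes. Of 25 genes, which hold junction proteins, surface receptors and the Ets and Sox factors of endothelium, 10 had a difference above 0 and 15 below, with a median of −0.019 and none past a threshold. With the trend removed, 13 lay above 0 and 12 below, and the median was 0.036. At the smaller size of 0.2, 4 of the 25 were lower as deposited and 0 higher. They were Adgrl4, S1pr1 (−0.22), Icam2 (−0.22) and Cd34 (−0.20). Of all 21225 genes, 2505 were at or below −0.2 and 2382 at or above 0.2. None of the 10 genes reached that size as deposited. The lowest of the 25 was Adgrl4, an adhesion G protein-coupled receptor of endothelial cells, with 7.33 on the Shox2-/- array, 7.65 on the wildtype array and a difference of −0.32. The highest was the transcription factor gene Sox7, with 0.19. With the trend removed, S1pr1 (−0.15), Icam2 (−0.19) and Cd34 (−0.12) no longer reached 0.2 in size. Past it were then Adgrl4 (−0.35) and Myct1 (−0.21) on the lower side and Sox7 (0.25) and Mmrn2 (0.21) on the upper. As deposited, the summed linear signal of the 25 in Shox2-/- right atria was 97.1% of that in wildtype right atria.
A list of 11 further genes active in endocardium, among them some that other cells of the heart also use, had 10 differences above 0 and 1 below, with a median of 0.091. Of all genes, 54.9% lay above 0, with a median of 0.021. The list was chosen with earlier results of these data known. None was past a threshold. The highest was Notch1, a receptor of endocardial cells that acts in cushion formation, with 8.89 on the Shox2-/- array, 8.66 on the wildtype array and a difference of 0.24. The lowest was the flow-responsive factor gene Klf2, with −0.012. Npr3, a natriuretic peptide clearance receptor of endocardium, had 0.18. With the trend removed, the list again had 10 genes above 0 and 1 below, with a median of 0.15, where 50.6% of all genes lay above 0.
Genes of arterial, venous and lymphatic identity were represented by 7, 3 and 3 genes. The arterial ligand gene Efnb2 had the highest difference of its list, 0.21, and Hey1 the lowest, −0.078. Among the venous genes Nr2f2 had 0.15 and Aplnr −0.13, and among the lymphatic genes Pdpn, which epicardium and other tissues also express, had 0.25 and Lyve1 −0.048. Over all 10 lists of endothelial identity and signalling together, 97 genes were measured, of which 59 had a difference above 0 and 38 below, where 54.9% of all genes lay above 0. The lists also hold genes of heart muscle and liver, such as Erbb4 and Gdf2, so this is not a count of endothelial genes alone. On each array 92 of the 97 lay above the receptor level. Pgf was the only 1 of the 97 past a threshold, and with 2.91% of all genes past either, 1 of 97 is not particular to these lists. With the trend removed, 71 lay above 0 and 26 below, where 50.6% of all genes lay above 0. Of the genes named here, Nrp2, Ptprb, Bmpr2, Hey1 and Lyve1 changed from below to above 0, and Btc from above to below 0 (−0.0073). Without the trend, Vegfb reached the upper threshold at 0.35 and Pgf stayed past the lower one at −0.47.

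Markers of other cell types that the dissected tissue could hold were set beside these values, and for none was a test possible. Of all genes, 45.1% lay below 0, 1.78% were past the lower threshold and 1.13% past the upper. The 10 erythroid genes measured were all lower on the Shox2-/- array, with a median of −0.49, levels from 8.90 to 13.30 on the Shox2-/- array and from 9.59 to 13.48 on the wildtype array, and a summed signal of 80.5% of wildtype. All 5 megakaryocyte genes were lower as well, with a median of −0.34 and a summed signal of 73.2%, among them Pf4, a platelet chemokine, and Gp9, a platelet surface protein, both at −0.56. Pecam1, which platelets share, had −0.035. Of 10 leukocyte and blood progenitor genes, 7 were below 0, with a median of −0.085 and Myb (−0.50) past the lower threshold. In the fetal liver list all 8 genes were past the lower threshold, with a median of −0.97. Of 8 foregut and lung epithelium genes, 4 were past it, with a median of −0.36. The medians of the tissue layers beside the endocardium lay above 0, with 0.16 for 9 cardiomyocyte genes, 0.12 for 7 epicardium genes, 0.25 for 7 mesenchyme genes and 0.18 for 7 mural genes. Past the upper threshold were the sarcomere gene Ttn (0.43), the keratin gene Krt19 of the epicardium list (0.45), and the mesenchymal factor genes Prrx1 (0.80) and Twist1 (0.42), and no gene of the 4 lists was past the lower one. Members of the same lists also lay well below 0, with Myh11 at −0.34 and Rgs5 at −0.31 among the mural genes and Sox9 at −0.27 among the mesenchyme genes. The part of these cell types in the values of the 10 endocardium and endothelium genes was not tested. Without Pecam1 and Tek, which blood cells also express, the median of the other 8 was 0.018, as with them. Pecam1 (−0.035) lay below the middle of the 10 genes and Tek (0.057) above it, so the median could not move. The omission therefore says nothing about blood cells in the pools.

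**Figure D4:**
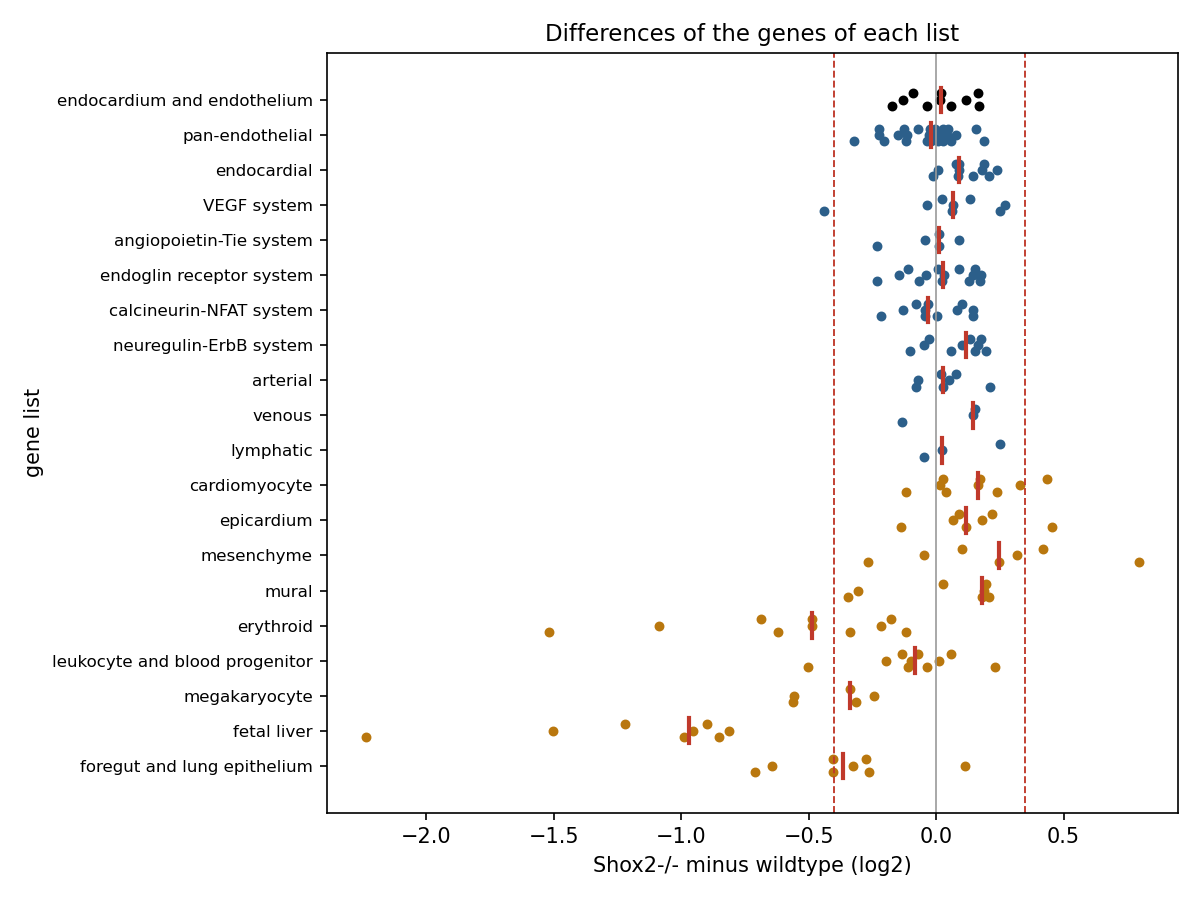
Shox2-/- minus wildtype difference (log2, x axis) of every measured gene of each list (points), with the list's median (red bar), for the 10 endocardium and endothelium genes (black), the lists of endothelial identity and signalling (blue) and markers of other cell types (ochre), with dashed lines at −0.4 and 0.35. The black points lie between −0.17 and 0.17, while the erythroid, megakaryocyte and fetal liver points all lie below 0.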

How the data were processed

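RNA of 1 pool of right atria per genotype was measured on GeneChip Mouse Gene 1.0 ST arrays. The authors took logs of the perfect-match probe values, applied quantile normalization, summarised probes by Entrez gene (custom CDF version 14) through log-linear fits in JMP Genomics 4.0, and deposited 1 log2 value per gene and array. The log base was taken from the range of the values, 5.09 to 13.6, and from the study's log2 ratios. No source at hand names the background correction or the genome build, and gene coordinates were left out. Signal that is not transcript makes up more of the value of a low gene, and it was not equal on the 2 arrays.
Of 21225 genes, 20239 had a symbol in the platform annotation. Differences were Shox2-/- minus wildtype. The lowess trend had a span of 0.3 and 3 iterations, and its code was tested on simulated data. The members, lists and alternatives were chosen with earlier results of these data known. Named are the 10 genes, the genes of each other endothelial list past a threshold or at its ends, receptors and ligands of the 10 genes, a few further members as examples chosen after their values were seen, and Shox2. No test was run on single arrays, and genes of like pattern were not sought. Promoter sequences are from RefSeq for GRCm38.p6. Python 3.11.15 was used with pandas 2.3.3, statsmodels 0.14.6 and matplotlib 3.10.9.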

Additional observations from a re-analysis of the deposited data

How the results depend on the processing

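The count of 0 among the 10 endocardium and endothelium genes past a threshold, in each direction, was the same under centring on the array medians, removal of the trend, thresholds of 0.4, of 0.35, of 0.2 and of 2-fold in both directions, and both filters on dim genes. The other thresholds were applied to the deposited differences only. With the trend removed, Tie1 (0.25) and Nfatc1 (0.23) were past 0.2. Over all genes, as deposited, 240 were at or above 0.35 and 377 at or below −0.4. The upper count was 132 at a threshold of 0.4, 2 at 2-fold, 2382 at 0.2 and 89 among genes above the median level, and the lower count was 597 at a threshold of 0.35, 14 at 2-fold and 2505 at 0.2. The median of the 10 genes, 0.018, was 0.014 after centring, 0.10 without the trend and 0.020 over the 9 genes above the median level, and 0.016 to 0.020 with each gene left out in turn. It was 0.018 again without Nfatc1 and Nrg1 and without Pecam1 and Tek. Each of these pairs holds a gene below the middle of the 10 and a gene above it, so the median could not move. Leaving out any 1 gene could likewise only give the value of Cdh5 (0.016) or Eng (0.020), the middle pair. With the trend removed, 1 of the 10 differences, that of Pecam1, changed sign, and so did the medians of the general endothelial list (−0.019 as deposited, 0.036 without the trend) and of the calcineurin and NFAT list (−0.030 and 0.038). The shift of each gene is fixed by the trend at its level, so that these alternatives say nothing about the spread between pools. No paired analysis was possible because each genotype had a single array, which also left no replicate to omit. Without replicates these arrays cannot show whether differences of the size found here exceed the spread between pools, and for Nrg1 the distance to the receptor level, 0.32 on the Shox2-/- array and 0.65 on the wildtype array, limits what a difference can show. Protein sequences of the receptor pairs were not used here.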
